A study of Mus musculus with 12 samples.

Results

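The antigen presentation genes described here are 10 mouse genes of the major histocompatibility complex (MHC) class I and class II pathways, read in 12 single cultured cardiac progenitor cells (CPCs). They were taken as a fixed list by gene symbol, and all 10 were among the 21729 genes of the table of read counts. Of these genes, 7 belong to class I (B2m, H2-D1, H2-K1, Tap1, Tap2, Tapbp and Nlrc5) and 3 to class II (Cd74, H2-Aa and H2-Ab1). The study asked how growth in culture alters the transcriptome of these cells. All 12 cells form 1 group of FVB origin: c-Kit+ cells, sorted with magnetic beads after blood lineages were depleted, came from the non-myocyte fraction of hearts of female mice aged 12 weeks. They were grown on gelatin with serum, leukemia inhibitory factor, basic fibroblast growth factor and epidermal growth factor, passaged 5 times, detached with trypsin and picked by hand. Each preparation pooled hearts, and the labels tie no cell to an animal or a dish, so the group counts as 1 sample, no test was made, and every spread given is a description of these 12 cells. Fresh cells were not analysed here.

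MHC class I molecules show peptides from inside the cell to CD8 T cells, and nearly all nucleated cells make them. Proteasomes cut proteins into peptides, the transporter Tap1/Tap2 carries them into the endoplasmic reticulum, tapasin (Tapbp) holds the transporter beside empty class I molecules, and the heavy chain (H2-D1 or H2-K1) pairs with beta-2 microglobulin (B2m) to hold the peptide. Class II molecules show peptides from engulfed material to CD4 T cells and are made mainly by dendritic cells, macrophages and B cells, where Cd74, the invariant chain, guides the pair of H2-Aa and H2-Ab1 chains. Interferons raise class I genes through IRF and other factors, and Nlrc5 and Ciita are the coactivators of class I and class II promoters respectively.

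The promoters of the 2 classes share an arrangement of boxes, and so the 250 bases up to the transcription start are shown for the 2 class I heavy chains, for B2m and for H2-Aa, a class II gene that held no counts. The sequences are those of RefSeq on GRCm38.p6, read 5′ to 3′ on the strand of the gene. The starts are also those of RefSeq, and the windows of H2-D1 and Tapbp lie inside the wider gene spans given below. H2-K1 had 2 windows, of which the first was used. Capitals mark matches, on either strand, to an IRF core (AANNGAAA), an X2 box core (TGACG), a Y box core (ATTGG) and the NF-kB consensus. The B2m window is chr2:122147437-122147686 on the plus strand, the H2-D1 window chr17:35262844-35263093 on the plus strand, the H2-K1 window chr17:34000348-34000597 on the minus strand and the H2-Aa window chr17:34287824-34288073 on the minus strand.
B2m: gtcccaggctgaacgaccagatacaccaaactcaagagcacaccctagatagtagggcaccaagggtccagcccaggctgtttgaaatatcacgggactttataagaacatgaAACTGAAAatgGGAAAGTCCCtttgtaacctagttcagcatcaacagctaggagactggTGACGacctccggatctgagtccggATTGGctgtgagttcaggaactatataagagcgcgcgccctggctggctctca
H2-D1: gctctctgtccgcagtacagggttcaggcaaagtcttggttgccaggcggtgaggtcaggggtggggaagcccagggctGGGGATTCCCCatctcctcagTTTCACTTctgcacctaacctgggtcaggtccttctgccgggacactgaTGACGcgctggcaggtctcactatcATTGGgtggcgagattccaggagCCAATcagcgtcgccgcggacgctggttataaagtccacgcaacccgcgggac
H2-K1: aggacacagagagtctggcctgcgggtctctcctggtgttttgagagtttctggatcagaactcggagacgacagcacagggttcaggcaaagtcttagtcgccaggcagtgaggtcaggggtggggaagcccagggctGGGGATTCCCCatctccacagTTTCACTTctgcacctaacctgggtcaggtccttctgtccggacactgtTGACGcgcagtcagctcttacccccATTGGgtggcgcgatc
H2-Aa: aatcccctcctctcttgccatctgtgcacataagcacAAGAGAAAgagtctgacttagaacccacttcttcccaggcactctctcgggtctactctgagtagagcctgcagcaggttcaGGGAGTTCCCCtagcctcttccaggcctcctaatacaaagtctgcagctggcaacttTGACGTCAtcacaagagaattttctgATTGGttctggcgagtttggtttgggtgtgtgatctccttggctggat

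All 4 windows held TGACG followed on the same strand by ATTGG, with 20 bases between them in B2m, H2-D1 and H2-K1 and 21 bases in H2-Aa. That order with a gap of 10 to 30 bases was present in 0.642% of 32851 upstream windows of the same length in mouse (211 windows). It was not found in the windows of Tap1 and Tapbp, the other members with a window. Taken singly, the IRF core was in 21.3% of all windows, TGACG in 17.8%, ATTGG in 33.9% and the NF-kB consensus in 3.90%. The last overlapped itself at the H2-D1, H2-K1 and H2-Aa matches. In the same 4 windows an IRF core and an NF-kB match were also present, while Tap1 and Tapbp had neither. The H2-D1 and H2-K1 windows were 87.4% identical over 190 aligned bases. The RNA levels of these 4 genes, given next, differed widely. These are matches of letters and no measure of factor binding.

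**Figure D1:**
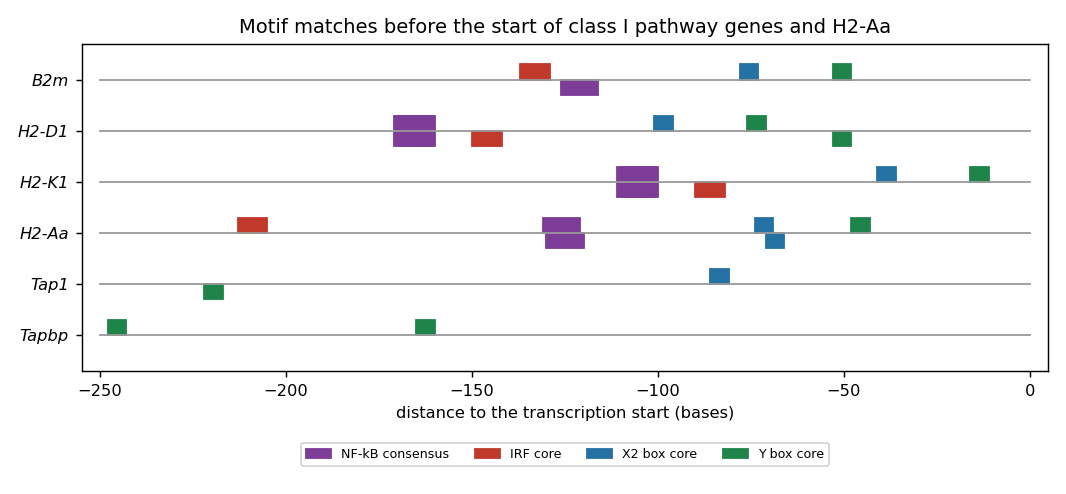
Motif matches in the 250 bases before the transcription start of 6 members, with distance to the start in bases on the x axis; boxes above a line are on the gene's strand and boxes below it on the opposite strand. B2m, H2-D1, H2-K1 and H2-Aa have an X2 box core 20 or 21 bases before a Y box core, and Tap1 and Tapbp do not.

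Several facts about the libraries bear on the values. Totals ran from 3453708 to 5690184 counts per cell, so a gene at 0 counts could lie at up to 0.527 to 0.869 CPM (counts per 1000000 counts of the cell), the level of 3 counts. Reads carry no molecular identifiers, so every such limit and every interval of a count printed here reflects counting error alone. The sorting antigen Kit had counts in cell 10 only (3.94 CPM), and in that cell the 10 endothelial markers summed to 9792 CPM against at most 64.3 CPM elsewhere. Cell 3 stood apart by Cd53, a leukocyte tetraspanin, with 1463 CPM where no other cell exceeded 19.4 CPM. The labels name female mice, yet 4 Y-linked genes held counts in all 12 cells, at 9.76 CPM in cell 3 and 63.7 to 267 CPM in the others. Counts past a fold and correlations of the members are given without cells 3 and 10 as well.

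The members divided into a class I set of which all but Nlrc5 were present in every cell and a class II set that was almost absent. Of the 10 members, 6 had a count in all 12 cells, against 35.3% of all genes in the table. Among the 84 class I values (7 genes in 12 cells), 75 were above 0, or 89.3%, and the 9 values at 0 were all of Nlrc5. Among the 36 class II values, 5 were above 0, or 13.9%, all of H2-Ab1, while the share over all genes was 50.5%. The summed class I level had a median of 3611 CPM and was lowest in cell 2 (1900.0 CPM) and highest in cell 3 (10612 CPM), with a mean of 4047 ± 2352 CPM (SD, 12 cells). Cell 6 came next after cell 3, at 5977 CPM. Without cells 3 and 10 the median was 3299 CPM.

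**Figure D2:**
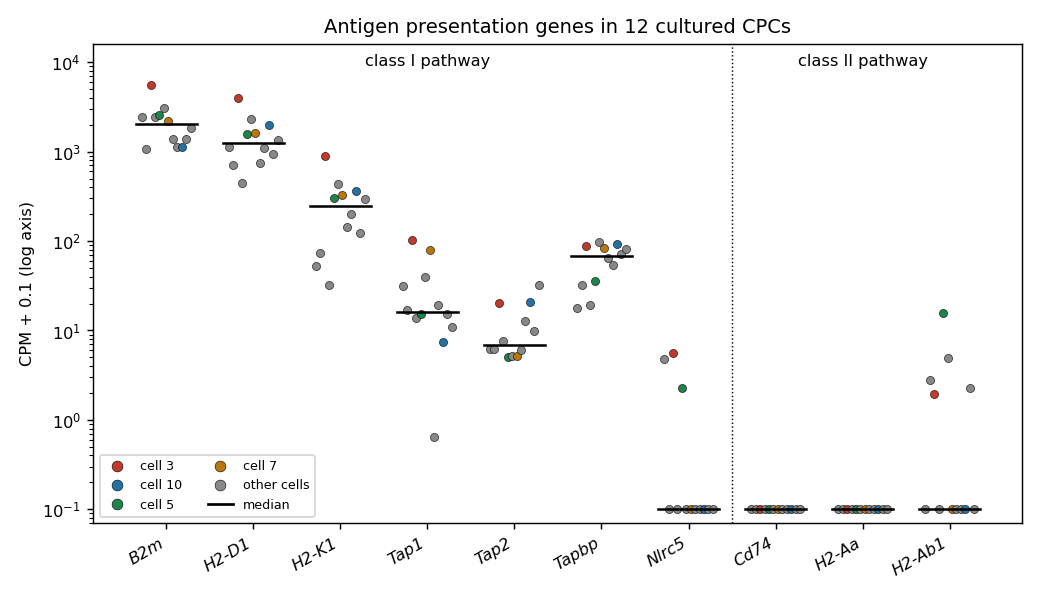
Level of each antigen presentation gene in 12 cultured CPCs, as CPM + 0.1 on a log axis, with 1 point per cell and a bar at the median; points on the lowest line are counts of 0. B2m, H2-D1, H2-K1, Tap1, Tap2 and Tapbp have counts in all 12 cells, Nlrc5 in 3, H2-Ab1 in 5, and Cd74 and H2-Aa in none.

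B2m (chromosome 2, 122147686 to 122153083, mm10) encodes the light chain common to all class I molecules. Its level was lowest in cell 2 at 1063 CPM, had a median of 2031 CPM and was highest in cell 3 at 5546 CPM. Cell 3 lay alone at the top, 1.81 times the next cell, and cells 2, 9 and 10 formed the low end at 1063 to 1125 CPM. Per kilobase of exon, B2m ranked between place 4 and place 22 of the 21354 genes with a known length, depending on the cell. No stretch of 75 bases, the length of a read, in its transcripts was shared with another gene.

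H2-D1 (chromosome 17, 35262730 to 35267499) encodes a classical heavy chain that presents peptide. Its lowest level was 446 CPM in cell 4, its median 1244 CPM and its highest 3960 CPM in cell 3. Cells 6 and 10 followed at 2330 and 1990 CPM. H2-K1 (chromosome 17, 33996017 to 34000347), the second classical heavy chain gene, was lowest in cell 4 at 31.9 CPM, had a median of 247 CPM and was highest in cell 3 at 888 CPM. Here too cell 6 came second, at 434 CPM, and cells 1, 2 and 4 were the low cells for H2-K1 at 51.8, 73.3 and 31.9 CPM. H2-K1 spanned a 27.9-fold range over the cells, against 8.89-fold for H2-D1 and 5.22-fold for B2m.

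Tap1 (chromosome 17, 34187553 to 34197225) forms the peptide transporter together with Tap2. It was the most uneven of the members counted in every cell, with a coefficient of variation of 106%. Cell 8 held 3 counts (0.545 CPM, exact 95% Poisson interval of the count 0.619 to 8.77), the median was 16.1 CPM, and cells 3 and 7 reached 103 and 79.7 CPM. Tap2 (chromosome 17, 34203527 to 34216321) followed another order, with a low of 4.98 CPM in cell 5, a median of 6.80 CPM and a high of 32.2 CPM in cell 12. Cell 10 came next at 20.7 CPM and cell 3 at 20.0 CPM, while cell 7, rich in Tap1, had only 5.14 CPM of Tap2. Of the 75-base stretches of Tap2, 8.27% are shared with 2 antisense gene models, and exons of Tap1 overlap those of Psmb9 on the other strand by 212 bases. The counting rule for strand is not stated, so reads in those parts cannot be assigned with certainty.

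Tapbp (chromosome 17, 33915899 to 33929292), tapasin, had the smallest spread of the 6 genes, with a coefficient of variation of 47.3%. It ranged from 17.7 CPM in cell 1 through a median of 68.3 CPM to 97.0 CPM in cell 6. The low cells were 1, 4, 2 and 5, at 17.7 to 35.4 CPM. Exons of Zbtb22 and Gm19412 overlap 1053 of its exon bases, and 18.6% of its 75-base stretches are shared, the highest share among the members.

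Nlrc5 (chromosome 8, 94434356 to 94527272), the class I coactivator, was counted in 3 cells only. Cell 1 had 16 counts, cell 3 had 21 and cell 5 had 11, which is 2.19 to 5.54 CPM, and the other 9 cells had 0. Cell 3 had the highest value, with a Poisson interval of 13 to 32.1 counts that overlapped those of cells 1 (9.15 to 26.0) and 5 (5.49 to 19.7). In cells 6 and 7, which were high for H2-K1 and for Tap1 respectively, no Nlrc5 was detectable at this depth.

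Levels of different genes were set side by side per kilobase of exon. The medians on that scale were 2362 CPM per kilobase for B2m, 482 for H2-D1, 83.9 for H2-K1, 18.8 for Tapbp, 2.93 for Tap1 and 1.80 for Tap2. B2m was above H2-D1, H2-D1 above H2-K1 and H2-K1 above Tapbp in 12 of 12 cells, and Tapbp was above Tap1 in 11 of 12. Tap1 was above Tap2 in 9 of 12 cells, and their medians differed by 1.13 CPM per kilobase, less than the SD of either gene over cells (5.67 and 2.28). The order of the RNAs thus placed the light chain and the heavy chains far above the transporter and tapasin. With the shortest coding transcript as the length, H2-D1 stood above B2m, and the rest of the order was as given.

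The balance between the class I parts differed from cell to cell. Per kilobase, the heavy chains together amounted to 0.267 of B2m in the median cell, to 0.0642 in cell 4 and to 0.684 in cell 10. Cell 10 was well above the next cell (0.377 in cell 9), since it combined a low B2m level of 1125 CPM with the third highest H2-D1 level. Cell 4 was the reverse case, with 2458 CPM of B2m beside the lowest heavy chain levels. H2-D1 exceeded H2-K1 by 6.16 times in the median cell on the per-kilobase scale. The ratio lay between 5.08 and 8.69 in 9 cells and at 11, 15.9 and 24.8 in cells 2, 4 and 1. The ratio of Tap1 to Tap2 per kilobase ran from 0.0628 in cell 8 to 10.7 in cell 7, around a median of 1.57.

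The 2 heavy chain genes are near copies, and that limits their counts. Their longest coding transcripts were 91.1% identical over 1578 aligned bases, although only 5.56% of the 75-base stretches of H2-D1 and 3.10% of those of H2-K1 occur in another gene of the reference. FVB mice carry another MHC haplotype (q) than the C57BL/6 reference genome (b) to which the authors mapped the reads. How far this shifted counts between H2-D1, H2-K1 and their relatives was not tested. All cells share the strain, but whether such a shift was alike in each of them was not tested. Ratios and correlations of these genes across cells carry the same doubt.

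Across the 12 cells some members moved together and others did not. These correlations, on log2(CPM + 1), describe 12 cells that were prepared and scaled alike and differ in depth and in genes counted. Cells 1, 2 and 4, low in both H2-K1 and Tapbp, were among the cells with more genes counted. The part of that difference in the correlations was not tested. H2-D1 and H2-K1 had a Spearman rho of 0.92 (Pearson r 0.90), and 0.87 without cells 3 and 10. H2-K1 and Tapbp had a rho of 0.87 (0.82 without those cells), and H2-D1 and Tapbp 0.76 (0.62). B2m followed the heavy chains less closely, with a rho of 0.51 with H2-D1 and 0.38 with H2-K1. Those 2 values were 0.36 and 0.19 without cell 3, and 0.54 and 0.33 without cells 3 and 10. Tap1 and Tap2, which make a single transporter, had a rho of -0.27. It was -0.48 without cell 3, -0.41 without cells 3 and 10 and -0.68 without cells 3 and 8, the cells farthest from the Tap1 median.

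**Figure D3:**
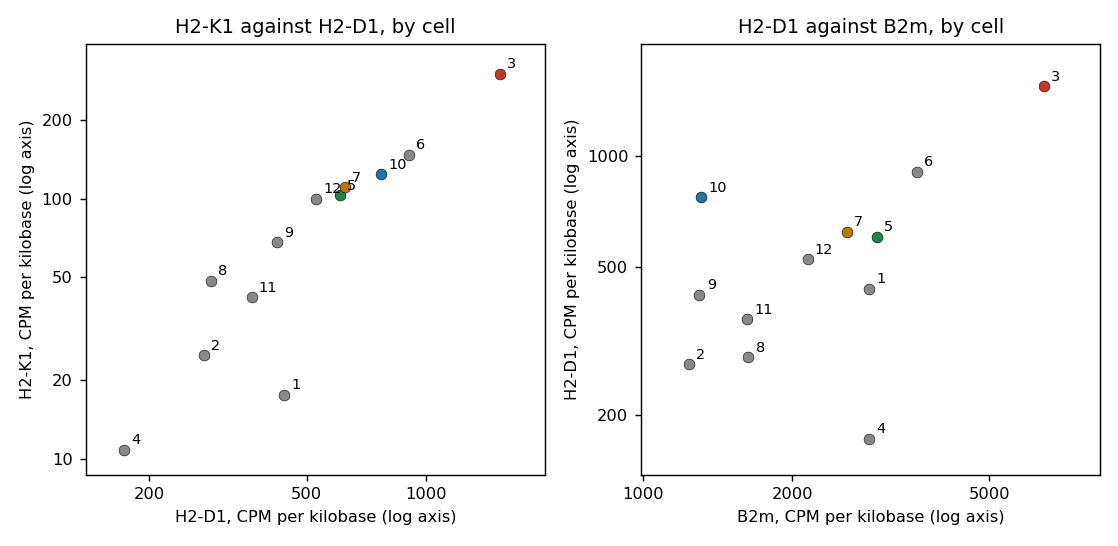
H2-K1 against H2-D1 (left) and H2-D1 against B2m (right) in 12 cells, in CPM per kilobase on log axes, with 1 point per cell numbered by cell. The heavy chains rise together except that cells 1, 2 and 4 have little H2-K1, while cell 10 has much H2-D1 for its B2m and cell 4 little.

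Cell 3 had the highest value of B2m, H2-D1, H2-K1, Tap1 and Nlrc5. Of the 6 members that averaged 5 CPM or more, 4 were highest in cell 3, against 6.80% of the 9725 genes past that level. Only Tap1 reached at least 5 times its median cell (6.41 times), which is 1 of 6 members against 12.9% of those 9725 genes. The median member of the 6 reached 3.39 times its median cell, and the median gene 2.27 times. Without cells 3 and 10 the count was again 1, now Tap2 in place of Tap1, against 7.91% of 9616 genes. A single cell set most of the upper range of the class I genes, at 2.73 to 3.60 times the median for B2m, H2-D1 and H2-K1.

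The class II members were at the limit of the counts. Cd74, the invariant chain, and H2-Aa (chromosome 17, 34282744 to 34287823), the alpha chain, had 0 counts in all 12 cells. H2-Ab1 (chromosome 17, 34257689 to 34269419), the beta chain, had 127 counts in all, spread over 5 cells. Cell 5 held 79 of them (15.7 CPM, Poisson interval of the count 62.6 to 98.5). Cell 6 followed with 18 counts (4.78 CPM), and cells 11, 2 and 3 had 12, 11 and 7. Because H2-Aa was at 0 throughout, no cell could have counts of both chains of the class II pair. Cell 5, the only one above 5 CPM of H2-Ab1, was not the cell with the highest class I level. H2-Aa and H2-Ab1 share no exon bases with other genes, and Cd74 shares 12 of 1679. The haplotype difference described for H2-D1 and H2-K1 applies to H2-Aa and H2-Ab1 too, and whether it lowered their counts was not tested.

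Genes of the wider class II pathway gave a mixed picture. Of 13 listed genes 12 were in the table, 3 of them were counted in every cell and 4 in none (H2-Eb2, H2-Oa, H2-Ob and Ciita, the class II coactivator). H2-DMa, which helps to load class II molecules, was at least 5 times its median (8.99 CPM) in cell 3, at 52.5 CPM, 1 of the 4 genes that averaged 5 CPM or more against 12.9% of genes, and none of the 4 was past it without cells 3 and 10, against 7.91%. The genes with a high median were lysosomal enzymes that many cells use: Ctsl at 556 CPM, Lgmn at 121 CPM and Ifi30 at 23.3 CPM. Of the class II chains and helpers, H2-Eb1 reached at most 3.79 CPM, H2-DMb1 3.19 CPM and H2-DMb2 4.52 CPM. Costimulatory genes, which antigen-presenting cells display beside MHC, were low or absent in most cells. Cd86 and Pdcd1lg2 were at 0 in all cells, Cd80 had counts in 9 cells and a median of 7.72 CPM, and Cd40 had counts in 6 cells and a median of 0.797 CPM. Cell 3 was the exception, with 93.1 CPM of Cd40 (next cell 4.34), 34.5 CPM of Cd80 (next cell 19.6) and 40.6 CPM of Cd274, the ligand of PD-1 (next cell 3.76). Icosl was highest in cell 10, at 22.2 CPM.

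Some markers of antigen-presenting immune cells were high in cell 3 as well. Of 15 markers 5 were highest there, and of the 5 that averaged 5 CPM or more 4 were, against 6.80% of genes. Cd53 averaged 5 CPM only through cell 3, so its place among these 4 followed from that cell. The 15 summed to 1638 CPM in cell 3, and to 2.99 to 90.6 CPM in the other cells. Of the 15, 7 were at 0 in all 12 cells, among them defining markers of myeloid and dendritic cells (Itgam, Itgax, Laptm5, Tyrobp, Fcer1g and Flt3). Ptprc, the pan-leukocyte antigen CD45, was at 0 in cell 3 and at most 9.70 CPM (cell 7). In cell 3, Cd53 made up most of the sum, Cd68 was at 69.1 CPM, Csf1r at 59.1 CPM and Lyz2 at 30.3 CPM, and cell 9 had 64.4 CPM of Cd68. Zbtb46, found in dendritic cells and elsewhere, had a median of 5.93 CPM. The part of these transcripts in the class I level of cell 3 was not tested.

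Other marker lists gave the background of the remaining cells. Of 6 T and NK cell markers, Cd4, Nkg7 and Prf1 were at 0 and the sum was at most 3.48 CPM. Of 10 endothelial markers, Cldn5 and Vwf were at 0 in all cells, and Emcn, Plvap, Pecam1, Esam, Cdh5 and Egfl7 were highest in cell 10, the cell with the highest ratio of heavy chains to B2m. Fibroblast markers summed to 1504 CPM in the median cell, with a low of 219 CPM in cell 10 and a high of 6764 CPM in cell 12, and Col1a2, Ddr2, Col1a1 and Col3a1 led the list. Of the endothelial 6, only Emcn still averaged 5 CPM without cells 3 and 10, and it was then past 5 times its median through cell 5 (37.6 CPM). In the fibroblast list Col1a1, Col1a2, Dcn, Tcf21 and Thy1 were past 5 times the median, which is 5 of 8 against 12.9% of genes, and 4 of 7 against 7.91% without cells 3 and 10. Dcn averaged 5 CPM only through cell 3, and Tcf21 had counts in 2 cells. Among markers of pericytes and smooth muscle, Acta2 was at 3668 CPM in cell 11 (median 19.2 CPM), Pdgfrb had a median of 26.1 CPM, and Kcnj8 was at 0. Of 8 cardiomyocyte markers 6 were at 0, and Tnnt2 reached 86.6 CPM in cell 12. Cell 11, high in Acta2, had 2551 CPM of summed class I members and cell 12, high in fibroblast markers, 3622 CPM, and both lay within the range of the other cells.

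Among the proteasome genes, the 3 inducible subunits were far above their median in cell 3, and the constitutive ones and the activator were not. Psmb8, Psmb9 and Psmb10 replace Psmb5, Psmb6 and Psmb7 in the immunoproteasome, and Psme1 and Psme2 form its activator. Of the 5 immunoproteasome genes, 3 were counted in every cell, 4 were highest in cell 3 against 6.80% of genes, and 3 were past 5 times their median against 12.9%, all in cell 3 (Psmb9 with a mean over 5 CPM only through that cell). Without cells 3 and 10, 1 of 4 was past it, Psmb8, against 7.91%. Psmb8 was at 161 CPM there against a median of 4.11 CPM, Psmb9 at 50.6 against 4.32 CPM and Psmb10 at 348 against 43.5 CPM. Psme2 and Psme1 had medians of 148 and 73.6 CPM. Psmb6, Psmb7 and Psmb5 had medians of 424, 91.2 and 42.3 CPM. None of these 3 constitutive genes was past 5 times its median, and their sum stayed between 421 and 881 CPM. Per kilobase, Psmb8 was 0.920 of Psmb5 in cell 3, 0.226 in cell 10 and 0.0269 in the median cell. Psmb10 was 5.44 times Psmb7 in cell 3, 2.91 times in cell 7 and 1.04 times in the median cell.

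**Figure D4:**
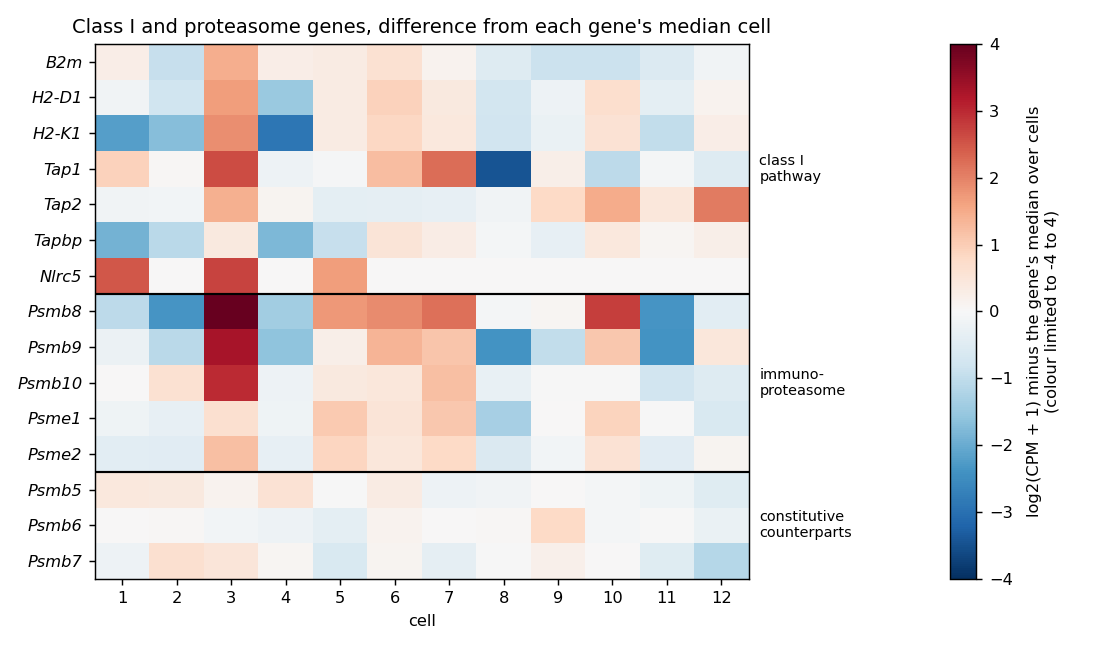
Difference of log2(CPM + 1) from the median over 12 cells, for the 7 class I members, 5 immunoproteasome genes and their 3 constitutive counterparts (rows) in each cell (columns). Cell 3 is high in most class I and immunoproteasome rows, cell 8 is low in Tap1, cells 1, 2 and 4 are low in H2-K1, and the constitutive rows vary little.

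Genes of peptide loading and trimming were present in nearly every cell. All 11 were in the table and averaged 5 CPM or more, 10 were counted in every cell, none was past 5 times its median against 12.9% of genes, and none was highest in cell 3 against 6.80%, counts that are near the background for so few genes. Pdia3, which works with tapasin on class I molecules, had a median of 1810 CPM, and the chaperones Hspa5, Calr and Canx had medians of 933, 825 and 725 CPM. Erap1, which trims peptides to length, ran from 3.76 to 32.0 CPM. The other class I and class I-like molecules were low. Of 25 listed genes 19 were in the table, 8 were counted in every cell and H2-M2, H2-M10.1 and Cd1d2 in none. Fcgrt, the receptor for IgG and albumin, had a median of 88.6 CPM, Mr1, which presents vitamin metabolites, one of 23.7 CPM, H2-T23 (Qa-1) 7.32 CPM and H2-T22 6.07 CPM. H2-T22 reached 51.7 CPM in cell 3 and 31.2 CPM in cell 7, H2-M3 30.4 CPM in cell 10 and 28.7 CPM in cell 9, and Cd1d1 22.3 CPM in cell 7, and these 3 of 7 genes at a mean of 5 CPM were past 5 times their median, against 12.9% of genes. The 3 were also past it without cells 3 and 10, against 7.91%. Counts of the H2-Q and H2-T genes carry the same doubt as those of H2-D1 and H2-K1.

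Regulators of the pathway were mostly present in every cell. Of 26 listed genes 19 were counted in all cells, and Ifng and Ifnb1, the genes of interferon gamma and interferon beta, had 0 counts in all cells. Jak1, Ifngr2, Stat3 and Rela had the highest medians, at 168, 121, 108 and 100.5 CPM. Ifngr2 is a chain of the interferon gamma receptor and Jak1 a kinase of interferon receptors. Irf1 was at 76.7 CPM in cell 3 and 40.4 CPM in cell 6 with a median of 9.50 CPM, and Socs1, a feedback inhibitor, at 26.4 CPM in cell 3 with a median of 2.48 CPM. Both were past 5 times their median, Socs1 with a mean over 5 CPM only through cell 3, and neither was without cells 3 and 10. In all, 3 of the 20 regulators that averaged 5 CPM or more were past it, against 12.9% of genes. Without cells 3 and 10, 1 of 19 was, against 7.91%. These counts are near the background for so few genes. Of the factors that bind the X and Y boxes, Rfxap had a median of 32.1 CPM, Nfyc 29.3 CPM, Nfyb 27.2 CPM, Rfxank 4.32 CPM, Nfya 3.54 CPM and Rfx5 0.451 CPM.

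All 20 listed interferon-stimulated genes had their highest values in cell 3, where Mx1 had its only counts. The 18 that averaged 5 CPM or more were thus all highest there, against 6.80% of the 9725 genes at that mean. Of these 18, 16 were past 5 times their median, against 12.9% of the 9725 genes. For Oas1a, Rsad2, Ifih1 and Zbp1 the mean passed 5 CPM only through cell 3. Their place at the top in cell 3 and these 4 calls therefore followed from that cell. Without cells 3 and 10, 10 of 14 were past it, against 7.91% of genes. They summed to 13231 CPM in cell 3, 4844 CPM in cell 7, 1021 CPM in cell 12 and 452 CPM in the median cell. Ifit3 alone was at 4447 CPM in cell 3 and 1088 CPM in cell 7, with a median of 7.71 CPM. The 16 genes were Ifit1, Ifit2, Ifit3, Isg15, Irf7, Bst2, Oasl2, Oas1a, Mx2, Rsad2, Usp18, Rtp4, Ifi44, Ifih1, Xaf1 and Zbp1, most of them restrictors or sensors of viruses. Xaf1, Ddx58 (the RNA sensor RIG-I), Bst2 and Ifit2 had the highest medians, at 75, 70.1, 59.4 and 29.7 CPM. Rsad2 reached 851 CPM in cell 3, and its next cell had 0.247 CPM.

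Genes that respond mainly to interferon gamma showed the same cell at the top. Of 12 listed genes, Cxcl9 was at 0 in all cells and 10 were highest in cell 3, where Gbp6 and Cxcl10 had their only counts. The 7 that averaged 5 CPM or more were Gbp2, Gbp3, Gbp7, Irgm1, Irgm2, Igtp and Iigp1. All 7 were highest in cell 3, against 6.80% of genes, and past 5 times their median, against 12.9%. Without cells 3 and 10, 5 of the 7 were past it, against 7.91%. These guanosine triphosphatases act against microbes inside cells. Irgm1 had the highest median, 139 CPM, and reached 1344 CPM in cell 3 and 1012 CPM in cell 7. Irgm2, Gbp2 and Gbp7 had medians of 17.7, 8.84 and 8.83 CPM. The list summed to 2432 CPM in cell 3, 1513 CPM in cell 7 and 212 CPM in the median cell.

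A class I score, the mean of log2(CPM + 1) over the 7 class I members, allowed the cells to be ordered. It was 7.78 in cell 3, 6.58 in cell 6, 6.50 in cell 7 and 6.35 in cell 12, and lowest in cells 4, 8 and 2 at 5.20, 5.23 and 5.40. Cell 7, the second cell for interferon-stimulated genes (score 5.71, against 8.26 in cell 3 and 4.25 in cell 12), was thus only the third for class I. Cell 10 had the lowest interferon-stimulated score, 1.65, with a class I score of 6.24. The class I and interferon-stimulated scores had a rho of 0.65 (r = 0.83) over 12 cells, 0.55 (r = 0.60) without cell 3, 0.73 (r = 0.73) without cells 3 and 10 and 0.62 (r = 0.66) without cells 3 and 4. With the immunoproteasome score the rho was 0.88 (0.87 without cells 3 and 10), and with the interferon gamma-induced score 0.88 (0.83). With the constitutive proteasome score it was -0.12 (-0.26), with the loading and trimming score 0.49 (0.47) and with the log2 total of the cell -0.13 (0.03). With the number of genes counted in the cell it was -0.09 (0.02).

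**Figure D5:**
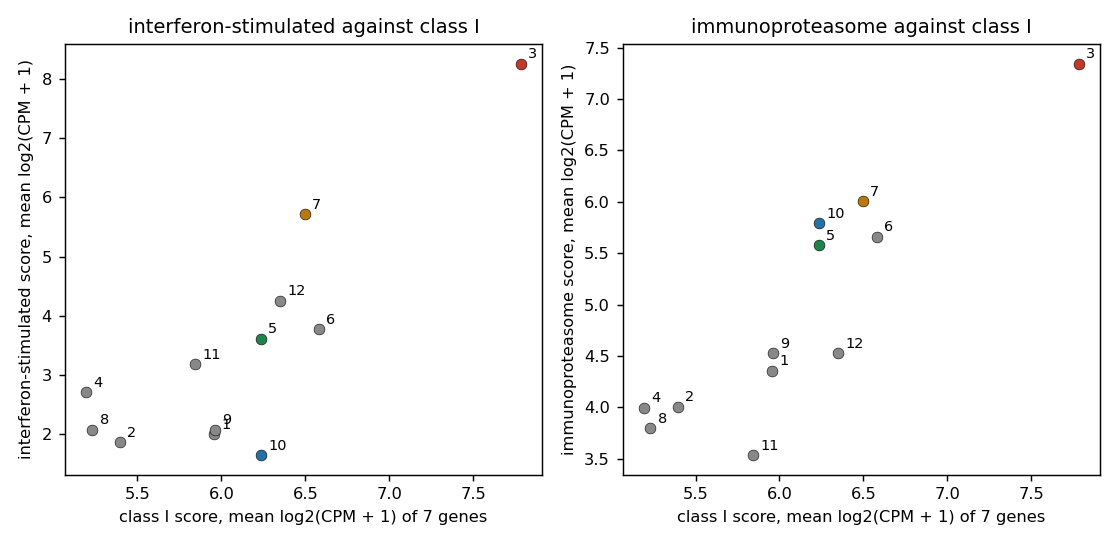
Interferon-stimulated score (left) and immunoproteasome score (right) against the class I score in 12 cells, each the mean of log2(CPM + 1) over its list, with 1 point per cell numbered by cell. Cell 3 is at the upper right of both panels, and cell 10 has a low interferon-stimulated score but an immunoproteasome score of 5.79, the third highest.

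The genes whose pattern over the 12 cells was most like the class I score were sought among 8197 other genes that averaged 10 CPM or more and had counts in at least 10 cells. They were Ifi203 (rho 0.89), Gas6 (0.85), Phf1 (0.85), Psme2b (0.85) and Bst2 (0.84). Without cells 3 and 10 these values were 0.83, 0.81, 0.92, 0.77 and 0.73. In all, 14 genes (0.171%) reached 0.80. The genes nearest to B2m were Evi5 (0.88), Serpina3n (0.85), Slirp (0.85), Svbp (0.84) and Cript (0.82), and none of them was among the 5 nearest to the class I score. Their values without cells 3 and 10 were 0.83, 0.78, 0.82, 0.79 and 0.85. With 12 cells and so many genes, values of this size are a ranking and no more. Class II counts reached 10 in only 4 cells, too few for such a ranking.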

How the data were processed

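Messenger RNA of 12 single cells was copied as whole transcripts with the Smart-Seq v4 kit and made into Nextera XT libraries. The authors mapped paired reads to mm10 with STAR (version 2.5.2b in the submitters' processing notes) and discarded reads with several mapping places. What they deposited is a table of raw counts, with no normalization. The counting program, annotation and strand rule are not given in the sources used here.

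CPM values scaled each cell to 1000000 counts. Levels between genes used CPM per kilobase of the union of exons of GENCODE vM21, matched by symbol for 98.3% of genes. Scores were means of log2(CPM + 1). A gene was called past its median where the highest cell had at least 5 times the median cell (a median of 0 included) and the gene averaged 5 CPM or more. Intervals of counts (exact Poisson) had a level of 0.95. Motifs were searched in the RefSeq windows on both strands. Named genes were the members, and from each pathway and marker list the 4 highest medians, those past 5 times the median and those at 0, plus the 5 nearest genes per pattern, and a few others named after their values were seen. Members and lists were chosen with earlier results of these data known. The lists covered other class I molecules, loading and trimming, immunoproteasome, constitutive counterparts, class II pathway, costimulation, regulators, interferon-stimulated and interferon gamma-induced genes, and markers of immune, T and NK, endothelial, fibroblast, mural and cardiomyocyte cells and Kit. Of the listed genes, 7 were not in the table and not analysed here. Some listed genes are not reported here. With 1 group no comparison was tested. Only the fold rule and the ranking of like genes were tested on simulated data. In those data unchanged genes spread less over cells than the members did here. Alternatives in scaling, depth, threshold, length and cells are given in the closing section. R 4.3.3 with edgeR 4.0.16 gave TMM factors only, and Python 3.11.15 with biopython 1.88, scipy 1.17.1, pandas 2.3.3, numpy 2.4.6 and matplotlib 3.10.9 the rest.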

Additional observations from a re-analysis of the deposited data

How the results depend on the processing

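Of 90 values under another scaling, depth, threshold, length or choice of cells, 30 were medians of 0 and remained 0, which says little. Of the other 60, 55 stayed within the tolerance set for them and 5 moved. The tolerance was 1 SD over cells, the binomial interval, 1.5 times for a number of genes and 0.1 for a rho. For the medians 1 SD was wide, above the median itself for Tap1 (31.0 and 16.1 CPM) and Tap2 (8.62 and 6.80 CPM). The H2-K1 median counted as within it at 171 CPM without cells 3 and 10, against 247 CPM. Such medians could hardly move, so the count of 55 says little about them. The share of member values with a count was 66.7%, and 52.5% at 10 CPM or more. The number of members past their median cell by the fold was 1, and became 4 of 6 at 3 times (H2-D1, H2-K1, Tap1 and Tap2, against 29.7% of genes), 0 at 10 times (5.66%), and 3 of 8 (Tap1, Nlrc5 and H2-Ab1) with a mean of at least 1 CPM (22%) or with no filter (37.5%, the share of these members too). When each cell was left out in turn, that number was 1 to 2, with Tap2 added without cell 3, 4, 9, 10 or 11. The rho of the class I and interferon-stimulated scores was then 0.55 (without cell 3) to 0.80 (without cell 10), the class I sum 3599 to 3622 CPM, the share with a count 65.5 to 67.3% and the class II sum 0 in each case. The removal of cells 3 and 10 together was chosen after the data were seen for the sums, levels and numbers past the fold, list counts included. No paired analysis was possible because the 12 cells form 1 group. Nlrc5 and H2-Ab1 rest on few reads, and the effect of the unstated counting rules was not tested.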
